A study of Mus musculus with 6 samples.

Results

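The WAVE complex, the activator that Rac GTPases use to start branched actin networks, was followed through 9 subunit genes taken by name: Nckap1, Nckap1l, Wasf1, Wasf2, Cyfip1, Cyfip2, Abi1, Abi2 and Brk1. All 9 were among the 24376 genes listed in the deposited tables. RNA was sequenced from blood progenitors of C57BL/6 mouse fetal liver taken at E14.5, in mid-gestation, and 3 libraries came from cultures infected with a retrovirus carrying a control short hairpin RNA (shRNA) and 3 from cultures infected with one carrying an shRNA against Samd14. Infection followed isolation directly, the cells grew for 3 days, and RNA was taken from the cells that carried neither CD71 nor Ter119, which mark the surface of maturing red cell precursors. Both groups therefore came from cultures infected with a hairpin retrovirus, and no uninfected culture was compared. The labels do not name the target of the control hairpin, the number of animals per culture or the share of infected cells. Nothing in the labels ties the replicates to different animals or cultures, so a p-value here speaks only of the spread among these libraries, which may be technical. The complex was picked because Nckap1 differed between these same groups in earlier results, so the group values of the members are given as a description with no p-value.

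Each WAVE complex holds 5 kinds of subunit in a single copy each. A CYFIP protein pairs with a NCKAP1 protein and binds active Rac, and a WASF (WAVE) protein, an ABI protein and BRK1 form the other arm. In the resting complex the end of WASF that activates Arp2/3 is held inactive, and binding of active Rac releases it so that Arp2/3 can start a new filament branch. Most places in the complex can be filled by related proteins from different genes. NCKAP1 is made in most tissues and is abundant in brain, whereas NCKAP1L, also called HEM1, is the form of blood cells.

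The libraries held 20584169 to 26462797 estimated counts. At this depth 3 counts correspond to 0.113 to 0.146 counts per 1000000 (CPM), and these floors cover counting error only. Samd14 itself, the target, had 82.0, 82.1 and 83.8 CPM in the control libraries and 41.9, 38.8 and 39.4 CPM in the shSamd14 libraries. It fell to 0.484 of the control level (edgeR adjusted p = 4.69e-07). edgeR here means its quasi-likelihood test, with p adjusted by the Benjamini-Hochberg method over all genes. At an adjusted p of 0.05, 327 of 12670 genes (2.58%) were called, 1.32% higher and 1.26% lower in shSamd14. All 10 listed markers of blood progenitors, such as Kit, Ptprc and Myb, were above 1 TPM (transcripts per 1000000, a level scaled to transcript length) in some library, with a summed level of 1890 to 2320 TPM in control and 1820 to 2630 TPM in shSamd14 libraries. Of 10 neural markers, 6 were listed at 0 in every library (Stmn2, Snap25, Syt1, Nefl, Gap43 and Dcx) and 9 stayed below 1 TPM. Among 10 stromal markers Col3a1, Dcn and Lum were listed at 0 throughout, and among 10 macrophage markers C1qa and Cd5l were. Other genes of these lists were present, with sums of 8.20 to 10.6 TPM (stromal) and 20.6 to 33.1 TPM (macrophage) in control libraries. Hepatoblast and endothelial markers summed to 42.2 to 84.4 and 117 to 124 TPM there. The genes at 0 therefore do not measure how pure the cells were.

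Per length of transcript, the genes of the complex differed widely in level. In control libraries Brk1, the smallest subunit, had the highest level at 144 ± 3.36 TPM (SD, n = 3), followed by Nckap1l at 97.8 ± 6.93, Abi1 at 53.1 ± 3.17, Wasf2 at 48.1 ± 2.12, Cyfip1 at 27.1 ± 1.36, Cyfip2 at 20.0 ± 1.96, Nckap1 at 15.4 ± 1.18, Abi2 at 8.93 ± 0.896 and Wasf1 at 0.60 ± 0.07 TPM. The control libraries of neighbouring genes in this order did not overlap, except those of Abi1 and Wasf2, whose TPM ranges crossed. Within each single library the order was the same, in 6 of 6 libraries. Of the paralogues that share a place in the complex but are outside the 9, Wasf3 was listed at 0 TPM in all 6 libraries, and Abi3, a further ABI gene, had 1.90 ± 0.509 TPM in control and 2.81 ± 0.91 TPM in shSamd14 libraries. From counts, with means of 4.14 and 5.08 CPM, Abi3 did not pass (log2 fold change 0.30, SE 0.18, edgeR adjusted p = 0.473). Its transcript length averaged 3697.5 ± 534.4 bases in control and 3161.8 ± 751.3 in shSamd14 libraries, so its TPM and CPM differ in fold. With length offsets its log2 fold change was 0.53, and it did not pass either (edgeR adjusted p = 0.368).

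**Figure D1:**
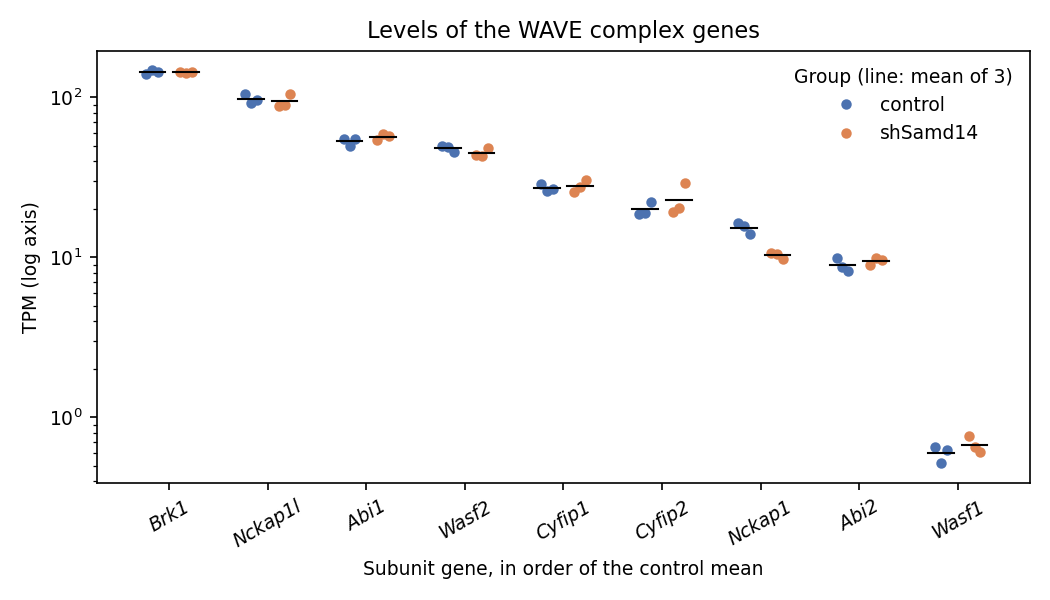
Level of each subunit gene in TPM on a log axis, in order of the control mean, with 1 point per library and a line at the mean of 3 libraries. Brk1 lies highest at 144 TPM in control and Wasf1 lowest at 0.60 TPM, and Nckap1 is the gene whose groups stand apart, at 15.4 and 10.3 TPM.

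Nckap1 (ENSMUSG00000027002, chromosome 2, 80500512 to 80581380, minus strand, mm10) encodes the large scaffold protein that joins the complex to CYFIP. The control libraries held 42.8, 43.1 and 38.8 CPM, and the shSamd14 libraries 29.6, 28.2 and 25.5 CPM. All 3 shSamd14 libraries lay below all 3 control libraries. The group means of 41.6 ± 2.39 and 27.7 ± 2.12 CPM (SD, n = 3 each) put shSamd14 at 0.668 of control, a log2 fold change of -0.58 (SE 0.08). On the scale per length the values were 16.41, 15.65 and 14.10 TPM in control and 10.71, 10.53 and 9.77 TPM in shSamd14 libraries, so the groups stood apart there too. Each library held between 672 and 989 estimated Nckap1 counts, and none of the 36-base stretches of its transcripts occurs in another listed gene. The estimates were whole numbers in control replicate 2 (989) and shSamd14 replicate 3 (687). They were fractional in the other libraries, such as 885.94 in control replicate 1. The lack of shared exact stretches therefore does not settle whether some Nckap1 reads were divided with other genes. In these bulk samples a lower share of cells that express Nckap1 cannot be told apart from less Nckap1 RNA per cell.

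Nckap1l (ENSMUSG00000022488, chromosome 15, 103453794 to 103498810, plus strand), the blood paralogue, had 290, 267 and 279 CPM in control and 257, 255 and 289 CPM in shSamd14 libraries. Its groups overlapped: shSamd14 replicate 3 lay above control replicates 2 and 3. The means were 279 ± 11.7 and 267 ± 19.2 CPM (SD, n = 3 each), and the log2 fold change was -0.06 (SE 0.07). Like Nckap1, it shared no 36-base stretch with another listed gene. Set against each other per length, Nckap1l exceeded Nckap1 6.42-, 5.87- and 6.81-fold in the control libraries and 8.23-, 8.57- and 10.8-fold in the shSamd14 libraries. These ratios did not overlap between the groups, and the log2 ratio of Nckap1 over Nckap1l was lower by 0.52 in shSamd14, from -2.67 ± 0.11 to -3.19 ± 0.21 (SD, n = 3 each). Without shSamd14 replicate 3, the library with the widest ratio, the difference between the log2 fold changes of the paralogues was -0.40, against -0.52 with all libraries.

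The pair was also summed, since both proteins fill the same place. Nckap1 and Nckap1l together had 122, 108 and 110 TPM in control and 98.8, 101 and 115 TPM in shSamd14 libraries, and these sums overlapped. Nckap1 supplied 13.5%, 14.6% and 12.8% of the sum in control and 10.8%, 10.4% and 8.50% in shSamd14 libraries, on average 13.6% and 9.93%. Nckap1l thus made up most of the transcripts for this place in every library of both groups.

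**Figure D2:**
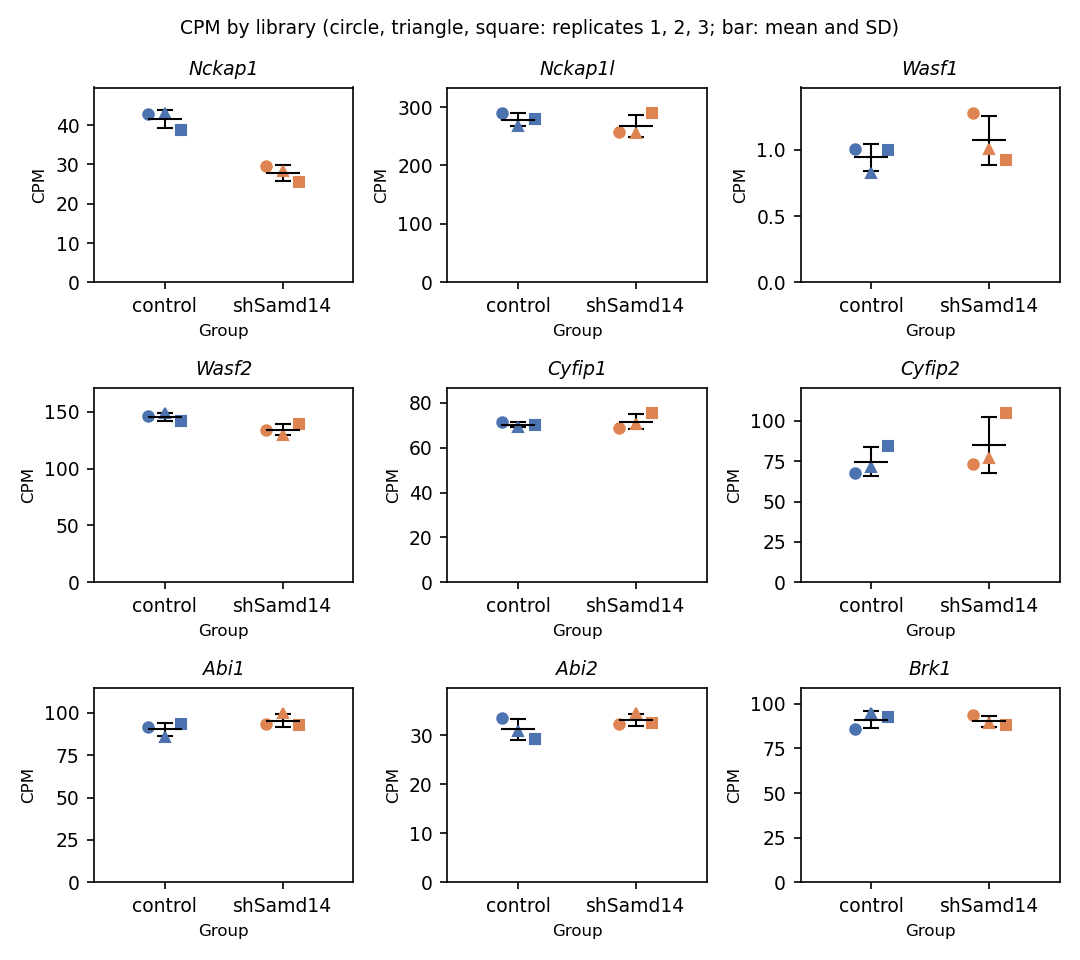
CPM of the 9 subunit genes by library, each panel from 0, with symbols for replicates and bars at the mean and SD of 3 libraries. Nckap1 lies at 41.6 CPM in control and 27.7 CPM in shSamd14 with no overlap, Nckap1l lies at 279 and 267 CPM with overlap, and Cyfip2 is highest in replicate 3 of both groups.

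Sequence was shown for these paralogues because an earlier look at these same libraries found genes that were lower to hold the 7-base words CAAGTGT or AAGTGTA often in the 3′ untranslated region (UTR), and genes that were higher to hold CTGATTA or TGATTAA. These words were therefore chosen on these samples, and their presence is a description, not a site or a cause. The longest annotated 3′ UTR of the deposited transcripts was read in the sense direction (GENCODE M21 transcripts, GRCm38, the assembly of mm10). Nckap1 held CAAGTGTA, in which CAAGTGT and AAGTGTA overlap by 6 bases, 44 bases before the end of its 783-base 3′ UTR. Nckap1l held CAAGTGT and AAGTGTA at separate positions of its 1267-base 3′ UTR, and TGATTAA besides. Samd14 held CAAGTGT near its end. The words are in capitals, 5′ to 3′ on the transcript strand:
Nckap1, chr2:80500545-80500574, minus strand: catttgaaattCAAGTGTAcctgccataac
Nckap1l, chr15:103498520-103498549, plus strand: aattagaatttCAAGTGTcacagagccttt
Nckap1l, chr15:103498178-103498207, plus strand: ctgtgggtaaaAAGTGTAtcttccctgttc
Nckap1l, chr15:103498689-103498718, plus strand: aattagccagtTGATTAAttagggtcgtgc
Samd14, chr11:95026004-95026033, plus strand: ccgtgaagagcCAAGTGTgcccacctgcat

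Among the 11734 tested genes with such a UTR, 14.3% held CAAGTGT, 11.2% held AAGTGTA and 2.8% held the joined word CAAGTGTA. Either CAAGTGT or AAGTGTA was in 21.0% of them, and either CTGATTA or TGATTAA in 13.7%. Of the other members, Abi1 held CAAGTGT and Cyfip1 held AAGTGTA, Cyfip2 held CTGATTA, and Abi2 held CTGATTA and TGATTAA. Wasf1, Wasf2 and Brk1 held none of these words. The joined word CAAGTGTA was in Nckap1 and in none of the other 8 members, and CAAGTGT or AAGTGTA alone was also in Nckap1l, Abi1 and Cyfip1. The part of these words in the group values was not tested.

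The CYFIP proteins bind Rac and stand next to the NCKAP1 proteins in the complex. Cyfip1 (ENSMUSG00000030447, chromosome 7, 55841745 to 55932602, plus strand) had 71.5, 69.1 and 70.2 CPM in control and 68.9, 70.4 and 75.5 CPM in shSamd14 libraries. These groups overlapped, with a log2 fold change of 0.03 (SE 0.06). Its 3′ end overlaps Nipa2 on the opposite strand, 17.4% of its 36-base stretches occur there, and the use of strand in counting is not given in the sources used here, so its level is less certain. Cyfip2 (ENSMUSG00000020340, chromosome 11, 46193850 to 46312859, minus strand) had 67.9, 71.4 and 84.8 CPM in control and 73.5, 76.9 and 105 CPM in shSamd14 libraries. Replicate 3 was the highest library in each group. The log2 fold change of Cyfip2 was 0.19 (SE 0.16) with all libraries and 0.005 without shSamd14 replicate 3. Cyfip2 made up 42.4% ± 2.89 of the summed Cyfip TPM in control and 44.8% ± 3.78 in shSamd14 libraries (SD, n = 3 each), so both paralogues were present at levels of the same order.

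The WASF proteins carry the end that activates Arp2/3. Wasf2 (ENSMUSG00000028868, chromosome 4, 133130505 to 133199756, plus strand), the form made in most blood cells, had 146, 149 and 142 CPM in control and 134, 130 and 139 CPM in shSamd14 libraries. On this scale the shSamd14 libraries lay below the control libraries, with a log2 fold change of -0.11 (SE 0.06), but on the TPM scale the groups overlapped, at 49.87, 48.76 and 45.77 in control and 43.67, 42.91 and 48.39 in shSamd14 libraries. Wasf1 (ENSMUSG00000019831, chromosome 10, 40883475 to 40938570, plus strand), which is abundant in brain, rested on 19 to 32 counts per library. Its lowest library, control replicate 2, had 0.816 counts per 1000000 before TMM scaling, with an exact 95% Poisson interval of 0.491 to 1.27, and its highest, shSamd14 replicate 1, had 1.26, with an interval of 0.864 to 1.78. These intervals cover counting error only, and they overlap. The log2 fold change of Wasf1 was 0.18 (SE 0.25), and it was 0.02 without shSamd14 replicate 1. Wasf1 supplied 1.23% ± 0.158 of the summed Wasf TPM in control and 1.49% ± 0.244 in shSamd14 libraries.

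The ABI proteins link the WASF arm to partners such as the ABL kinases. Abi1 (ENSMUSG00000058835, chromosome 2, 22940073 to 23040241, minus strand) had 91.4, 86.0 and 93.6 CPM in control and 93.2, 100 and 93.0 CPM in shSamd14 libraries, and its log2 fold change was 0.08 (SE 0.06). It shares 4.42% of its 36-base stretches with Pdss1, which overlaps it on the opposite strand. Abi2 (ENSMUSG00000026782, chromosome 1, 60409619 to 60481158, plus strand) had 33.5, 31.0 and 29.2 CPM in control and 32.3, 34.6 and 32.5 CPM in shSamd14 libraries, and its log2 fold change was 0.09 (SE 0.08). Both genes overlapped between groups. Abi1 supplied 83.0% ± 0.574 and 82.2% ± 1.03 of the summed Abi TPM in control and shSamd14 libraries (SD, n = 3 each). Brk1 (ENSMUSG00000033940, chromosome 6, 113604772 to 113616951, plus strand), the small subunit that has no paralogue among the 9 genes, had 85.9, 94.9 and 92.6 CPM in control and 93.7, 89.1 and 88.0 CPM in shSamd14 libraries. It overlapped between the groups, with a log2 fold change of -0.02 (SE 0.06).

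**Figure D3:**
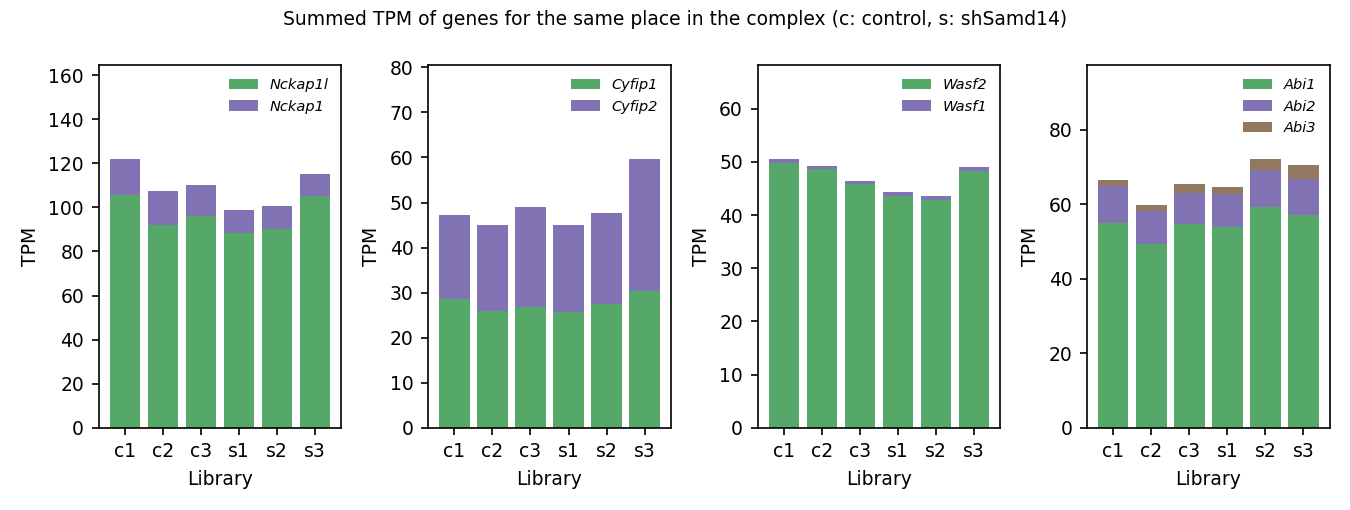
Stacked TPM, by library, of the paralogues that fill the same place in the complex, with c for control and s for shSamd14 libraries and the replicate number. Nckap1l and Wasf2 make up most of their sums in every library, at 86.4% and 98.8% on average in control, while Cyfip1 and Cyfip2 are more even at 57.6% and 42.4%.

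Across the 9 genes, 1 member, Nckap1, passed the threshold of the fit over all genes, 11.1% against 2.58% of all tested genes, and 2 members, Nckap1 and Wasf2, had CPM that did not overlap between groups, 22.2% against 20.7% of all tested genes. Since Nckap1 is the reason the complex was picked, nothing is read from the first count, and the second lay near that of all genes. The log2 fold changes of the other 8 members ran from -0.11 for Wasf2 to 0.19 for Cyfip2, and the median of all 9 was 0.03, beside 0.01 for all tested genes.

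The deposited length of a gene is the mean over its transcripts weighted by their estimated abundance, so that a shift between transcripts would move it. For Nckap1 it was 4469 bases in all 6 libraries, which is the length of 1 of its 2 listed transcripts. Nckap1l at 4717, Abi2 at 5772 and Brk1 at 1092 bases each had 1 listed transcript. Abi1, with 11 listed transcripts, averaged 2838.7 ± 34.6 bases in control and 2824.7 ± 13.6 in shSamd14 libraries, and Cyfip2, with 5, averaged 6154.4 ± 68.6 and 6202.0 ± 83.6 bases (SD, n = 3 each). These differences were smaller than the spread within the control group.

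Genes whose pattern over the 6 libraries was most like that of a paralogue were ranked by Pearson's r of log2(CPM + 0.5), as a description. The ranking covered the tested genes, leaving out members, predicted genes (Gm numbers or names ending in Rik) and IDs without a symbol. The libraries share their group means, so a high r with Nckap1 follows in part from a difference between the groups. For Nckap1 these were Ankrd13c (r = 0.993), Rmi2 (0.993), Armcx5 (0.993), Kbtbd8 (0.990) and Zfp386 (0.989). Their log2 fold changes lay between -0.56 for Kbtbd8 and -0.25 for Rmi2. For Nckap1l they were Kif13b (0.997), Zfyve26 (0.981), Bcl2l11 (0.981), Tchh (0.977) and Abhd2 (0.976). None of the 5 genes most like Nckap1l passed the edgeR threshold, and their log2 fold changes lay between -0.19 and -0.06. Of the 5 most like Nckap1, Ankrd13c, Armcx5 and Kbtbd8 passed as lower, and among all tested genes 2.58% passed. Each set was picked for following its paralogue over these same libraries, so nothing is read from which genes passed. With many genes ranked over 6 libraries, the highest r are also large by selection.

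Genes that act before and after the complex were read from lists of the pathway. Together 124 of 137 listed genes were tested, 2 rose and 4 fell (4.84%, against 2.58% of all tested genes), and their median log2 fold change was 0.03. The lists were chosen with earlier results of these data known, so nothing is read from the share called. None of the 9 Rac and Arf GTPase genes passed, Rac1 and the blood form Rac2 included, and their median was -0.005. In this list Arf5 had the smallest p (log2 fold change 0.16, SE 0.08, edgeR adjusted p = 0.349). None of 12 GTPase-activating proteins for Rac passed, where Chn1 came closest at 2.06 and 1.25 CPM on average (edgeR adjusted p = 0.144).

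Of 24 tested exchange factors, which load Rac with GTP, 1 rose and 2 fell, with a list median of 0.05. Sos2, an exchange factor for Ras that can also act on Rac, had 37.3, 37.0 and 33.8 CPM in control and 51.9, 54.9 and 57.1 CPM in shSamd14 libraries, with no overlap. It rose 1.52-fold (edgeR adjusted p = 0.000313). Prex2 fell from 11.4, 6.53 and 6.58 CPM to 4.27, 4.23 and 3.67 CPM, to 0.499 of the control level (edgeR adjusted p = 0.0296). Control replicate 1 was its highest library: without it the log2 fold change was -0.70 with an edgeR adjusted p of 0.0552, and the call was also lost without any single shSamd14 replicate (adjusted p 0.0909 to 0.125). Arhgef7, the exchange factor beta-PIX, fell to 0.825 of the control level (edgeR adjusted p = 0.0329). Its call was lost without control replicate 1 or 2 or shSamd14 replicate 1 or 2 (adjusted p 0.063 to 0.157).

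Of 17 tested binding partners of the complex, 1 rose and none fell. Nck2, an SH2 and SH3 adaptor that connects tyrosine kinases to WASF and WASP regulators, had 23.1, 18.6 and 18.7 CPM in control and 32.0, 33.1 and 35.9 CPM in shSamd14 libraries. The groups did not overlap, and Nck2 rose 1.68-fold (log2 fold change 0.75, SE 0.09, edgeR adjusted p = 0.000585). Its relative Nck1 had means of 29.9 and 28.4 CPM and did not pass (edgeR adjusted p = 0.649). Nck1 was named after its values were seen, and the difference between the Nck genes was not tested.

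Of the 10 genes of the Arp2/3 complex, the nucleator that WASF proteins activate, 1 fell and none rose. Arpc1a, a form of the ARPC1 subunit, had 115, 119 and 123 CPM in control and 96.9, 97.2 and 93.7 CPM in shSamd14 libraries, and the groups stood apart. It fell to 0.805 of the control level (log2 fold change -0.31, SE 0.06, edgeR adjusted p = 0.00982), and it passed in 6 of 6 fits with 1 library left out. Its paralogue Arpc1b, the form abundant in blood cells, had 358 and 376 CPM on average (log2 fold change 0.07, edgeR adjusted p = 0.735). Arpc1b was also named after its values were seen, and the difference was not tested. The median of the list was -0.04.

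None of 14 tested genes of other Arp2/3 activators, among them Was, Wasl and the WASH subunits, passed, and Wipf2 had the smallest p (edgeR adjusted p = 0.407). Of 23 genes of branch turnover and actin recycling, Gmfb, which takes apart branches by binding Arp2/3, fell, with means of 191 ± 10.8 and 158 ± 7.5 CPM in the control and shSamd14 groups (SD, n = 3 each; edgeR adjusted p = 0.0288). The call of Gmfb was lost in 5 of 6 fits, all but that without control replicate 3 (adjusted p 0.0722 to 0.115). None of 14 formin and Ena/VASP genes passed, with Diaph2 at a log2 fold change of -0.25 (SE 0.09, edgeR adjusted p = 0.19). In the 3′ UTR, Sos2 held CTGATTA and TGATTAA and Nck2 held TGATTAA, which occur in 7.1% and 9.7% of tested genes. Gmfb held the joined word CAAGTGTA as Nckap1 does, Arpc1a held CAAGTGT, and Prex2 and Arhgef7 held none of the words. The 3′ UTR of Gmfb has 3603 bases, against a median of 1128 for tested genes, and a longer UTR has more room for a word. Since the words were chosen on the higher and lower genes of these same libraries, their presence in called genes is a description and no support.

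**Figure D4:**
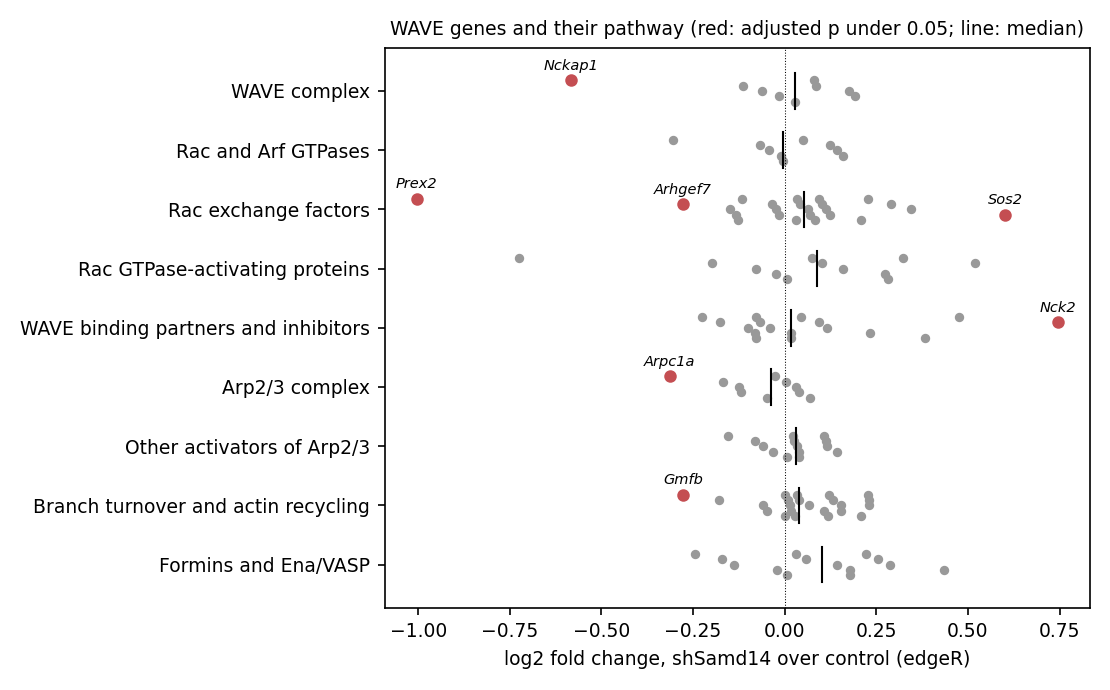
log2 fold change of shSamd14 over control in edgeR's fit for each tested gene (1 point) of the complex and of 8 pathway lists, red where the adjusted p was under 0.05, with a line at each median. Nckap1 at -0.58 is the red point of the complex, and 6 red points lie in the other lists, the lowest being Prex2 and the highest Nck2 at 0.75.

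Markers of other cell types were compared between the groups as well. The 11 listed megakaryocyte genes summed to 319 to 351 TPM in control and 424 to 468 TPM in shSamd14 libraries, and none was at 0. In the edgeR test 4 of these 11 were higher and none lower, beside 1.32% higher and 1.26% lower among all tested genes. Tfrc, which encodes CD71, the protein the cells were sorted against, had 979, 954 and 869 CPM in control and 814, 876 and 782 CPM in shSamd14 libraries. Its groups overlapped by 1 pair of libraries, and it did not pass (log2 fold change -0.18, SE 0.07, edgeR adjusted p = 0.239). The summed levels of 10 macrophage markers (20.6 to 33.1 TPM in control, 21.2 to 30.6 TPM in shSamd14), 10 hepatoblast markers (42.2 to 84.4 and 35.7 to 48.3 TPM), 10 stromal markers (8.20 to 10.6 and 8.49 to 10.6 TPM) and 10 endothelial markers (117 to 124 and 108 to 120 TPM) overlapped between the groups. The part of the megakaryocyte shift and of the lower Tfrc mean in the values of Nckap1 was not tested.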

How the data were processed

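For each of the 6 libraries a gene table from RSEM was deposited, which per the file headers gives expected counts, TPM, FPKM and transcript lengths. RSEM 1.2.15, Bowtie 1.0.1, CASAVA 1.8.2 and the mm10 build are listed in the submitters' processing notes. Settings, annotation release and strandedness: not given in the sources used here. FPKM as deposited by the authors served only as an alternative to TPM. Symbols for 23580 of 24376 Ensembl IDs, and gene positions, came from GENCODE M21.

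Expected counts were rounded and tested in edgeR 4.0.16 (R 4.3.3): filterByExpr (minimum count 10, total 15), TMM, robust quasi-likelihood fit, two-sided, Benjamini-Hochberg over all 12670 genes kept. The SE is the absolute log2 fold change over the root of F. CPM are TMM-scaled. The fit was checked on simulated counts. Between libraries of a group the chi-square per gene was 5.73 to 12.16, above sampling noise, so each was kept as a sample. Correlations of same-numbered deviations between the groups were -0.077, 0.199 and 0.344, and those of differently numbered ones ran from -0.352 to 0.223. Pairing by replicate number was thus not settled, and the main fit did not use it.

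The members and lists were chosen with earlier results of these data known. Besides the members, Samd14, Wasf3 and Abi3, up to 3 genes of smallest p among those passing in each list were named, or the 1 of smallest p where none passed, and the 5 genes most correlated with Nckap1 and with Nckap1l. 3′ UTRs of at least 50 bases were searched. Alternatives used DESeq2 1.42.0, limma 3.58.1, other scalings and filters, length offsets, a replicate block, and each library left out. A marker gene, and the marker sum that includes it, are not reported here.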

Additional observations from a re-analysis of the deposited data

How the results depend on the processing

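The log2 fold change of Nckap1 lay between -0.641 and -0.527 in 16 alternatives; since the gene led to the choice of the complex on these same libraries, this range is a description and no support. The difference between the log2 fold changes of Nckap1 and Nckap1l lay between -0.598 and -0.402. The signs of Cyfip1 (lowest -0.017) and Brk1 (highest 0.015), which were not called, turned in 1 alternative each, and no other member changed sign. With 1 library left out, 128 to 283 genes were called in all, 63 to 133 higher and 65 to 163 lower, and the list genes that fell numbered 1 to 4. limma on log2(TPM + 1) called 136 genes (83 higher, 53 lower) and on log2(TPM + 0.1) 130 (80 higher, 50 lower), with 1 list gene lower in each; Arhgef7 and Gmfb lost their calls there (limma adjusted p 0.115 to 0.185) and Prex2 was not tested, since it and Wasf1 did not reach the TPM minimum of these fits. With no low-count filter 261 genes were lower. A replicate block called 682 genes, 322 higher and 360 lower. Whether the numbers pair the samples was not settled, since only control replicate 3 correlated best with its own number. This block brought Chn1 past the threshold (adjusted p = 0.0426 in edgeR). The cause of these changes was not tested. Of 173 alternative values of the named pathway genes, 155 kept their direction and their side of the threshold, 17 lost the call, 1 gained it and none reversed. Depth limits Wasf1 most, at 19 to 32 counts per library.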
